A study of Mus musculus with 16 samples.

Results

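The genes described here are 6 genes of sterol and fatty acid synthesis, taken by symbol from a choice made with earlier results of these data known. They are Srebf1, Insig2, Acly, Acaca, Hsd17b7 and Acsl3, and they are 6 of the 5921 genes of which values were used. All 6 passed the filter on low values, a mean of at least 1 TPM (a level scaled for transcript length and to the same total in every library) over the 16 libraries. RNA was sequenced from ventricles dissected from mouse embryos at E11.5, in 4 groups of 4 biological replicates. The groups were the conditional knockout (cKO) of Atf4 and its controls in a line with exons 2 and 3 floxed (Atf4 fl(e2/3), batch 1 of the labels), and the same pair in a line with exon 2 alone floxed (Atf4 fl(e2), batch 2). In both lines the deletion was designed to be driven in cardiomyocytes by Xmlc2-Cre, and other cells of the ventricle were not targeted. The level of Atf4 itself was not analysed here. Every sample carries the genotype label C57BL/6 WT, the cKO included, and whether the controls carry the floxed alleles or Cre is not stated. No treatment was given. Each cKO was compared with the controls of its own line, because line and batch cannot be told apart.

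Cells make cholesterol and fatty acids from cytosolic acetyl-CoA. The transcription factors SREBP-1 and SREBP-2 switch on the genes of both pathways. They are held in the endoplasmic reticulum by SCAP and the INSIG proteins while sterols are plentiful, and they are cut and sent to the nucleus when sterols fall. Srebf1 encodes SREBP-1, which acts mainly on fatty acid synthesis, and Insig2 encodes one of the retaining proteins. Acly makes cytosolic acetyl-CoA from citrate, and Acaca turns it into malonyl-CoA, the committed step of fatty acid synthesis. Hsd17b7 is the ketone reductase that works in the removal of the methyl groups at carbon 4 of the sterol ring. Acsl3 joins long-chain fatty acids to coenzyme A at the endoplasmic reticulum and on lipid droplets, which readies them for lipid synthesis or oxidation. ATF4, the factor deleted here, is a leucine zipper protein that cells make when amino acids run short or proteins misfold.

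The start-site sequences of 3 of the genes are shown because the results return to these genes: Acsl3 for its knockout effect, Hsd17b7 as a gene that differed between the lines and Insig2 for its spread. Acaca differed more between the lines, but its window has its start at 84195438, far inside a row that begins at 84129635. Of the starts shown, that of Acsl3 lies at the beginning of its row (78657825). That of Hsd17b7 (169969205, row from 169969242) and those of Insig2 (121332589 and 121328024, row from 121332662) lie inside theirs. The sequences are from RefSeq on GRCm38.p6 and are written 5′ to 3′ on the gene's strand. They run from 250 bases before the annotated start to 50 bases from it. Capitals mark matches on either strand to CCAAT (the box bound by NF-Y, a factor that works with SREBPs), CACGTG (the palindromic E-box) and TGATGNAA (the core of the composite element bound by ATF4 with a C/EBP partner).
Acsl3, chr1:78657575-78657874, plus strand: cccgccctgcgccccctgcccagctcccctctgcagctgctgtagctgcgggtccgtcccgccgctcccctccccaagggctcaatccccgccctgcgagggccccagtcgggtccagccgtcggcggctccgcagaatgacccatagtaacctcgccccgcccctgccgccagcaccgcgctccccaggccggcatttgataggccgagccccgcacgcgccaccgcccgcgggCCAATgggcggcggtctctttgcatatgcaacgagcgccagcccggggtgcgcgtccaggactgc
Hsd17b7, chr1:169969156-169969455, minus strand: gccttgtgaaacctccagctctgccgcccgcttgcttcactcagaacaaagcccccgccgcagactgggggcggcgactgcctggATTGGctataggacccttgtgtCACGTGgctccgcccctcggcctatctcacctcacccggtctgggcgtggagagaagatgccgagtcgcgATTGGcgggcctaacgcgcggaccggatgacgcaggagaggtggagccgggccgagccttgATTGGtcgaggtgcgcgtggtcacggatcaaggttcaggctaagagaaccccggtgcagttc
Insig2, first annotated start, chr1:121332540-121332839, minus strand: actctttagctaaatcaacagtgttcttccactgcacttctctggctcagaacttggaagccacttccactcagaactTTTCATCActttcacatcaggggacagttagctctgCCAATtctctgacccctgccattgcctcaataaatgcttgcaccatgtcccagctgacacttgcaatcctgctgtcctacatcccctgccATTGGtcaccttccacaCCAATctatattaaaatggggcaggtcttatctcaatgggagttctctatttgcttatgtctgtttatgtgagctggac
Insig2, second annotated start, chr1:121327975-121328274, minus strand: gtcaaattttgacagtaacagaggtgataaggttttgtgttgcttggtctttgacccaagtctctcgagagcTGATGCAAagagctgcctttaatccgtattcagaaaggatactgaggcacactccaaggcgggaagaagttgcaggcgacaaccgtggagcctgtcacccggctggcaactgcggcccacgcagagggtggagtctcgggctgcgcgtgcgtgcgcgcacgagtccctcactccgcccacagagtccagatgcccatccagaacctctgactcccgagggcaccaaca

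The Acsl3 window held 1 CCAAT match, 15 bases before the start. Hsd17b7 held 3 CCAAT matches and 1 CACGTG match, and the first Insig2 window 3 CCAAT matches. TGATGNAA occurred in 2 of the 10 windows of the 6 genes, both of them of Insig2, 172 and 178 bases before the start. Insig2 has 3 windows, and the third, chr1:121327629-121327928, which is not shown, held 0 matches to any motif searched. The SREBP motif TCACNCCAC was searched for as well and had 0 matches in the 10 windows. CCAAT was found in 6 of the 10 windows, of 5 of the 6 genes. Among 32851 RefSeq promoters of the same length, 37.4% held CCAAT, 7.15% CACGTG, 3.97% TGATGNAA and 1.24% TCACNCCAC.

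By level, the order was Acly, Acsl3, Srebf1, Hsd17b7, Insig2 and Acaca. Acly averaged 77.2 TPM over the 16 libraries, above 87.4% of the 2620 genes tested, and Acsl3 42.1 TPM, above 75.8%. Srebf1 averaged 21.2 TPM, Hsd17b7 17.9 TPM and Insig2 15.0 TPM. Acaca was lowest, at a mean of 7.98 TPM, above 32.4% of the genes tested. Every Acly value lay above every Acsl3 value, and every Acsl3 value above those of the other genes. The neighbours below Acsl3 in the order did not separate: Srebf1, Hsd17b7 and Insig2 overlapped one another, and the highest Acaca value, 15.3 TPM, lay above the lowest of Insig2, 7.89 TPM.

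In the plot of TPM by library, Acsl3 is the gene whose cKO and control libraries separate, and they do so in the exon 2-3 line.

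**Figure D1:**
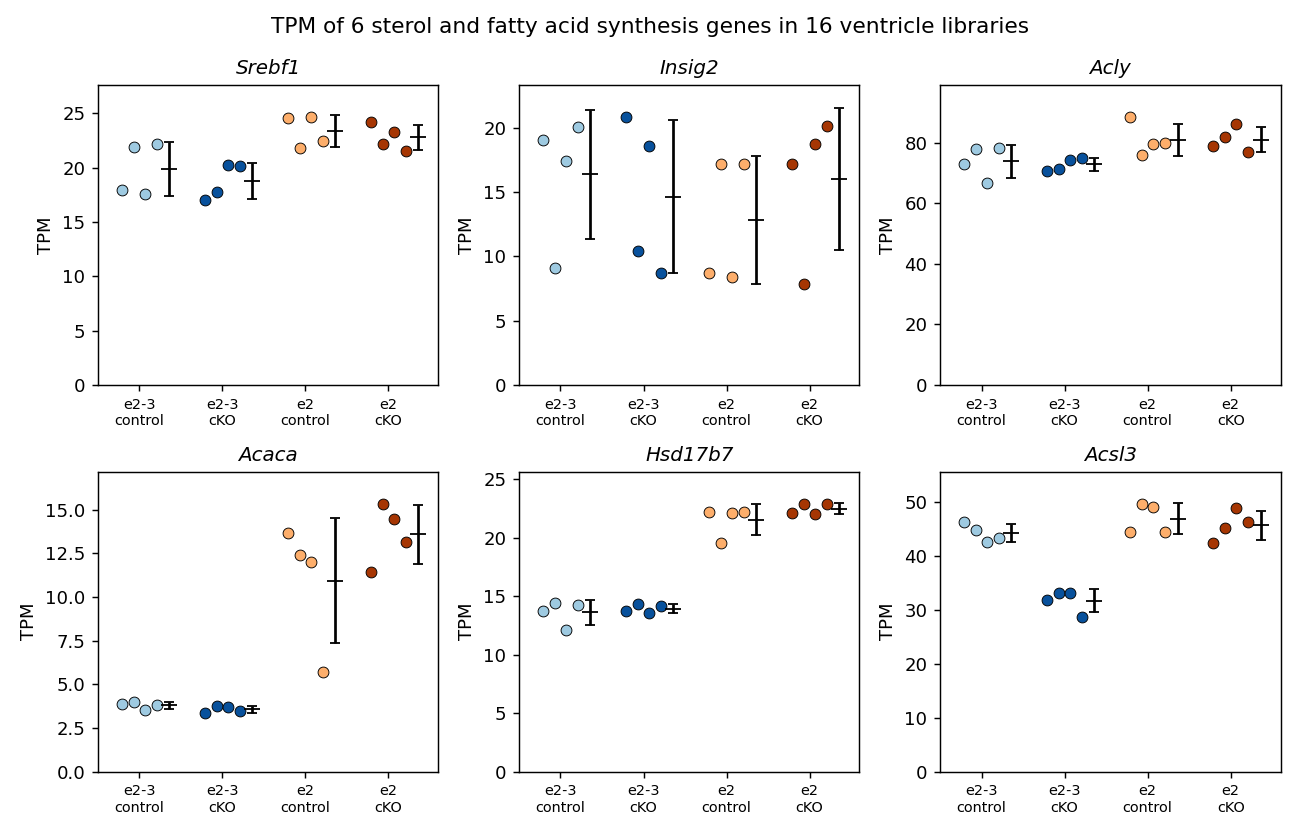
TPM of each of the 6 genes (vertical axes, from 0) in the 16 libraries, grouped on the horizontal axis as exon 2-3 (e2-3) control and cKO and exon 2 (e2) control and cKO; points are libraries, and the bar beside them is the mean with its SD, n = 4. The 4 Acsl3 values of the exon 2-3 cKO lie between 28.6 and 33.2 TPM, below the other 12, and Insig2 lies at a low and a high level in every group.

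Acsl3 was lower in the exon 2-3 cKO. Its 4 control libraries had 46.2, 44.8, 42.5 and 43.2 TPM, and its 4 cKO libraries 31.8, 33.2, 33.1 and 28.6 TPM. The groups did not overlap, and every cKO library also lay below all 8 libraries of the exon 2 line. The mean fell from 44.2 ± 1.64 TPM (SD, n = 4) to 31.7 ± 2.15 TPM (SD, n = 4), which is 28.3% lower. On the log2(TPM + 1) scale, on which all differences below are given, the change was -0.47 (SE 0.062, 95% confidence interval -0.61 to -0.33). The adjusted p was 0.00238 (limma, Benjamini-Hochberg over the 2620 genes), the 22nd smallest p of all genes. Of the genes tested, 6.72% passed this threshold in the exon 2-3 line, 2.56% as lower and 4.16% as higher in the cKO. The share of these calls that were higher was 61.9%, and 41.4% with median centring or 50.5% with quantile normalisation, with Acsl3 lower under each. Of the 6 genes 1 passed, as lower. Groups without overlap were found for 14.5% of genes in this line and for 1 of the 6.

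In the exon 2 line Acsl3 had 44.5, 49.6, 49.1 and 44.4 TPM in the controls and 42.3, 45.1, 48.8 and 46.3 TPM in the cKO. The ranges overlapped over most of their width. The difference was -0.038, with an interval of -0.18 to 0.10 (adjusted p = 0.9993, limma). The difference between the lines' knockout effects was -0.43 (95% interval -0.62 to -0.25, adjusted p = 0.0128, limma's interaction term). In that comparison 2.37% of genes passed, and 1 of the 6. This call was kept when any 1 library was left out (adjusted p from 0.00788 to 0.0354 over 16 fits). It was lost when the 2 exon 2-3 cKO libraries with the most hemoglobin RNA, replicates 2 and 4, were left out together (-0.39, adjusted p = 0.0557), whereas the effect within the exon 2-3 line was then -0.43 (adjusted p = 0.0261).

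Cell type markers moved in the same comparison. Of 7 epicardial and fibroblast markers, 5 rose in the exon 2-3 cKO (Tcf21, Dcn, Col1a1, Col3a1 and Col5a2). Their summed level was 343 to 392 TPM in the control libraries and 506 to 552 TPM in the cKO, and 0 of 7 were called in the exon 2 line, where the sums were 508 to 689 and 492 to 628 TPM. Of 7 ventricle cardiomyocyte markers, 1 was called in the exon 2-3 cKO, the transcription factor gene Hand1, as lower. Tnni1 was lower without overlap of the groups but was not called (-0.39, adjusted p = 0.213, limma), and 3 of the 7 were higher. The sums were 17064 to 18547 TPM in controls and 16570 to 17560 TPM in the cKO. The summed level of 6 erythroid genes ran from 2997 to 4556 TPM in controls and from 1513 to 11298 TPM in the cKO, with no gene called. No endothelial (6 tested), macrophage and leukocyte (3 tested) or neuronal marker (1 tested) was called in either line. The neuronal markers held summed to at most 6.23 TPM in a library. As with Tnni1, some markers not called had groups without overlap in the exon 2-3 line, which held for 14.5% of all genes. They were Lyz2 (-0.19) and Camk2b (-0.23), lower in the cKO, and Flt4 (0.24), higher. All 6 endothelial markers were higher in the exon 2-3 cKO, and 2 of the 6 in the exon 2 cKO. Their sums in the exon 2-3 line were 265 to 341 TPM in controls and 315 to 360 TPM in the cKO. The part of these shifts in the lower Acsl3 was not tested, and in whole ventricle fewer cells of a type and less RNA per cell cannot be told apart.

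Acsl3 lies at chr1:78657825-78707743 on the plus strand of GRCm38.p6. Utp14b starts at the same base on the same strand and shares 9777 bases with it, so reads of the shared stretch may be split between both. Utp14b had 5.95 to 6.96 TPM in the exon 2-3 controls and 2.69 to 5.26 TPM in the cKO. Its difference of -0.48 did not pass the threshold (adjusted p = 0.119, limma), and its mean over all libraries was 6.36 TPM against 42.1 TPM for Acsl3.

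**Figure D2:**
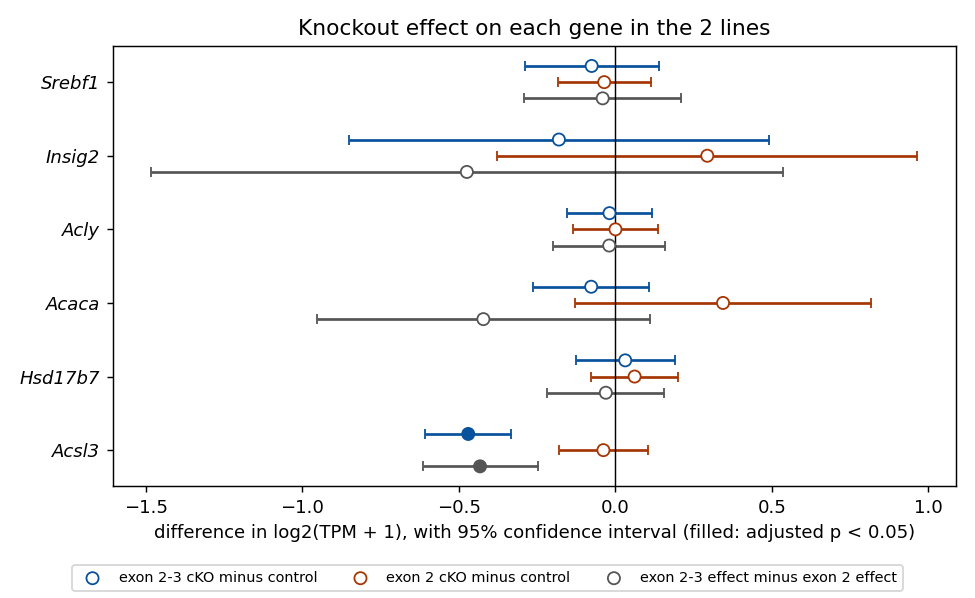
Difference in log2(TPM + 1) between cKO and control for each gene in the exon 2-3 line (blue) and the exon 2 line (brown), and the difference between these effects (grey), with limma's 95% confidence intervals; filled points passed an adjusted p of 0.05. Acsl3 is the gene with filled points, at -0.47 in the exon 2-3 line and -0.43 for the difference between the lines.

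The other 5 genes did not pass the test in the exon 2-3 line, and the width of their intervals differed. Srebf1 had 17.9, 21.9, 17.6 and 22.2 TPM in controls and 17.1, 17.7, 20.2 and 20.1 TPM in the cKO, a difference of -0.075 (interval -0.29 to 0.14). Acly had 72.9, 78.0, 66.6 and 78.2 TPM in controls and 70.8, 71.5, 74.3 and 74.9 TPM in the cKO, a difference of -0.018 (interval -0.15 to 0.12). The cKO values of Acly all lay inside the range of its controls. Acaca had 3.89, 4.02, 3.54 and 3.82 TPM in controls and 3.34, 3.74, 3.69 and 3.50 TPM in the cKO, a difference of -0.077 (interval -0.26 to 0.11). Hsd17b7 had 13.7, 14.4, 12.1 and 14.3 TPM in controls and 13.7, 14.3, 13.5 and 14.2 TPM in the cKO, a difference of 0.032 (interval -0.13 to 0.19) that turns to -0.017 with median centring and -0.020 with quantile normalisation. For these 4 genes the interval leaves out a fall as large as that of Acsl3. Insig2 had an interval of -0.85 to 0.49 around -0.18 and allows it.

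In the exon 2 line 0 of the 6 genes passed (limma), 0 had an unadjusted p under 0.05, and 0 had groups without overlap. Over all genes tested 0.0763% passed and 1.83% had groups without overlap. Srebf1 had 24.6, 21.9, 24.7 and 22.4 TPM in controls and 24.2, 22.2, 23.3 and 21.5 TPM in the cKO (-0.035, interval -0.18 to 0.11). Acly had 88.5, 76.1, 79.7 and 79.8 TPM in controls and 78.9, 82.0, 86.3 and 76.9 TPM in the cKO (0.00081, interval -0.13 to 0.14). Hsd17b7 had 22.2, 19.5, 22.1 and 22.2 TPM in controls and 22.1, 22.9, 22.1 and 22.8 TPM in the cKO (0.062, interval -0.077 to 0.20). In all 3 genes the cKO range overlapped that of the controls.

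Acaca, the acetyl-CoA carboxylase gene, had 13.7, 12.4, 12.0 and 5.72 TPM in the exon 2 controls and 11.46, 15.3, 14.5 and 13.2 TPM in the cKO. One control library, replicate 4, stood apart at 5.72 TPM, and the other 7 libraries overlapped. The difference of 0.34 (interval -0.13 to 0.82, adjusted p = 0.9993, limma) became 0.088 without that library.

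Insig2 had the widest spread of the 6 genes within groups, and no knockout effect was called. In the exon 2-3 line it had 19.0, 9.07, 17.4 and 20.04 TPM in controls and 20.8, 10.4, 18.5 and 8.70 TPM in the cKO. In the exon 2 line it had 8.67, 17.1, 8.38 and 17.1 TPM in controls and 17.2, 7.89, 18.7 and 20.1 TPM in the cKO. Over the 16 libraries 6 lay at or below 10.4 TPM and 10 at or above 17.1 TPM, with none between and both levels in each of the 4 groups.

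The SD of Insig2 within groups was 0.55 on the log2 scale. That was larger than in 98.7% of the 971 genes within a factor of 2 of its mean level, whose median SD was 0.12. Of the 2620 genes tested, 2 had a gap at least as wide with libraries of every group on both sides, Insig2 and Hivep2, a zinc finger gene. This comparison was chosen after the values of Insig2 had been seen. The gap leaves the knockout effect of Insig2 poorly determined, at -0.18 in the exon 2-3 line and 0.29 (interval -0.38 to 0.96) in the exon 2 line. The sign of the first changed without exon 2-3 cKO replicate 4 (0.022), which was at the low level. The low libraries of that group, replicates 2 and 4, were also its 2 libraries with the most hemoglobin RNA. A relation between the 2 was not tested. The row of Insig2 at chr1:121304353-121332662 overlaps no other row.

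**Figure D3:**
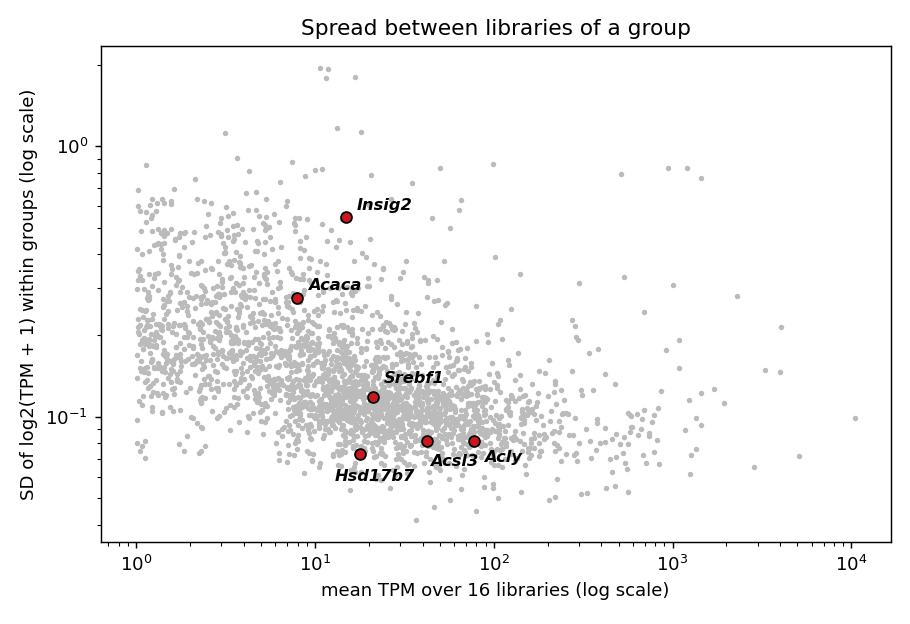
SD of log2(TPM + 1) within groups (vertical axis, log scale) against the mean TPM over the 16 libraries (horizontal axis, log scale) for the 2620 genes tested (grey), with the 6 genes in red. Insig2, at an SD of 0.55, lies above 98.7% of genes of like level, and Hsd17b7, at 0.073, among the lowest.

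Of the other genes, Acaca had an SD of 0.28, above 85.2% of genes of its level, and Srebf1 0.12, near the middle. Acly and Acsl3 had 0.082 each and Hsd17b7 0.073. Of the genes at the level of Hsd17b7, 3.79% had a smaller SD.

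The controls of the lines differed for 3 of the 6 genes, in a comparison in which 52.6% of all genes passed. Batch and floxed allele both differ here and cannot be told apart. Cell type markers differed in the same comparison. Of 7 cardiomyocyte markers 4 were higher in the exon 2-3 controls, Tnnt2 by 0.74 and Tnni1 by 0.66, and the sums averaged 17853 against 13505 TPM. Of 7 epicardial and fibroblast markers 6 were lower and 1 was higher, with Col1a1 at -1.23, Lum at -1.19 and Col3a1 at -0.74, and the sums averaged 371 against 576 TPM. Of 6 endothelial markers 3 were lower and 1 higher, and of 3 macrophage and leukocyte markers 1 was lower and 1 higher. The part of these shifts in the differences of the 6 genes was not tested. Acaca was lower in the exon 2-3 controls, at 3.82 ± 0.20 TPM (SD, n = 4) against 10.9 ± 3.56 TPM (SD, n = 4) in the exon 2 controls, a difference of -1.25 (adjusted p = 2.99e-05, limma). Its ratio between the lines was 2.87 in controls and 3.81 in the cKO, and all 8 values of the exon 2-3 line lay below all 8 of the exon 2 line. Hsd17b7 was lower as well, at 13.6 ± 1.06 TPM against 21.5 ± 1.32 TPM (SD, n = 4 each), a difference of -0.62 (adjusted p = 7.85e-07, limma), with ratios of 1.58 in controls and 1.61 in the cKO. The median of all genes in this comparison was -0.14, and both genes lie well below it.

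Srebf1 differed by -0.23 (adjusted p = 0.0306, limma), and this call was lost with median centring (-0.047, adjusted p = 0.577) and quantile normalisation (-0.11, adjusted p = 0.186). It was also lost without exon 2-3 control replicate 1 or 3 and without exon 2 control replicate 1 or 3 (adjusted p from 0.0803 to 0.1004). Acly (-0.13, adjusted p = 0.0755), Acsl3 (-0.082, adjusted p = 0.283) and Insig2 (0.35, adjusted p = 0.413) did not pass. Acly and Acsl3 changed sign with median centring, to 0.049 and 0.099.

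A wider list of 170 lipid genes, chosen with earlier results of these data known, places the 6 among their pathways. Of these, 34 were among the genes held and 32 were tested, since Acsl6 and Etnk2 were too low. In the exon 2-3 line 2 of the 32 rose and 2 fell, Acsl3 among the latter, where 4.16% and 2.56% of all genes tested did. At an unadjusted p under 0.05 there were 11 of 32, and 552 of 2620 over all genes. The median difference of the list was 0.0050 against 0.032 over all genes tested. In the exon 2 line 0 of 32 passed (limma), with 3 at an unadjusted p under 0.05 against 84 of 2620 over all genes, and the medians were -0.039 and -0.012.

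The genes called beside Acsl3 were Soat1, Lrp1 and Osbpl8, which stand in the list under sterol storage and transport, 3 of 5 tested, where 6.72% of all genes were called. The list was chosen with earlier results of these data known, so 3 of 5 cannot show that the group stands out. The group was not tested as a set. Soat1, which esterifies cholesterol for storage, had 21.1, 18.9, 17.7 and 21.6 TPM in the exon 2-3 controls and 26.6, 26.5, 27.3 and 28.6 TPM in the cKO (0.44, adjusted p = 0.00781, limma). Lrp1, a large endocytic receptor of the LDL receptor family, had 11.8, 14.5, 12.7 and 13.1 TPM in controls and 16.9, 19.7, 19.2 and 20.03 TPM in the cKO (0.51, adjusted p = 0.00705, limma). Osbpl8, a lipid exchange protein at contacts of the endoplasmic reticulum with the plasma membrane, had 32.3, 30.9, 26.5 and 27.6 TPM in controls and 21.8, 25.2, 22.9 and 20.1 TPM in the cKO (-0.37, adjusted p = 0.0351, limma). In all 3 genes the groups did not overlap, which held for 14.5% of all genes. The 3 were picked by their calls in the same libraries, so this adds no separate support. The exon 2-3 controls were also lower than the exon 2 controls in all 3 genes, in a comparison in which 52.6% of all genes passed. Soat1 differed there by -0.41 (adjusted p = 0.000178, limma), Lrp1 by -0.98 (adjusted p = 2.56e-06) and Osbpl8 by -0.46 (adjusted p = 0.0016). Soat1 averaged 19.8 TPM in the exon 2-3 controls and 27.3 TPM in the cKO. In the exon 2 line the averages were 26.6 and 27.2 TPM. The part of the cell type shifts in these 3 genes was not tested.

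The 3 knockout calls of these genes in the exon 2-3 line were less stable than that of Acsl3 over the fits run. That of Osbpl8 was lost in 5 of the 8 fits that left out 1 library, namely exon 2-3 control replicate 1 or 2 or cKO replicate 1, 3 or 4 (adjusted p up to 0.102). All 3 were lost without cKO replicates 2 and 4 together, at adjusted p values of 0.0821 for Soat1, 0.0900 for Lrp1 and 0.114 for Osbpl8. The difference between the lines passed for Soat1 (0.41, adjusted p = 0.0395, limma), although it was lost on leaving out any 1 library other than exon 2-3 control replicate 1 or 4, exon 2 control replicate 2 or exon 2 cKO replicate 3 (12 of 16 fits, adjusted p up to 0.0905). The difference missed for Lrp1 (0.42, adjusted p = 0.188) and Osbpl8 (-0.32, adjusted p = 0.304).

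**Figure D4:**
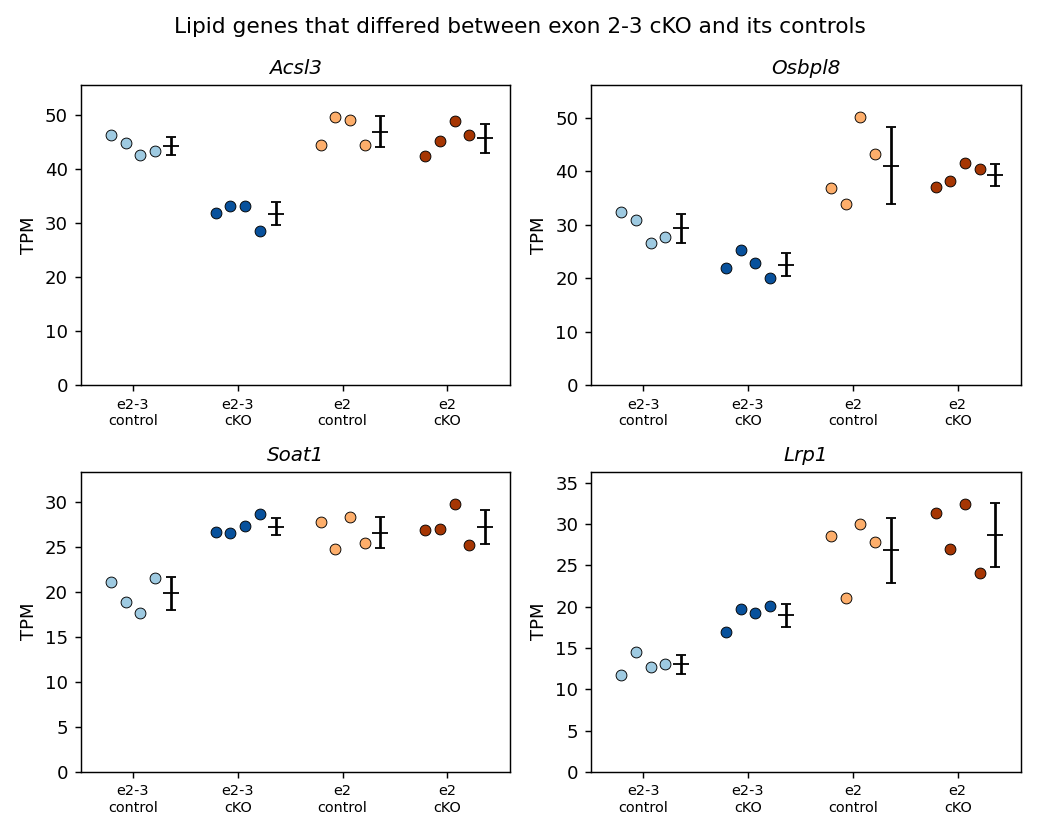
TPM (vertical axes, from 0) of Acsl3, Osbpl8, Soat1 and Lrp1 in the 16 libraries, by group as exon 2-3 (e2-3) control and cKO and exon 2 (e2) control and cKO; points are libraries, bars the mean with its SD, n = 4. In the exon 2-3 line Acsl3 and Osbpl8 are lower and Soat1 and Lrp1 higher in all 4 cKO libraries than in all 4 controls.

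Apart from Acsl3, the other groups of the list had no gene called in either line. In SREBP control (6 tested, with Srebf1 and Insig2), the kinase gene Stk11, which acts upstream of AMPK, differed by -0.014 and the ubiquitin ligase gene Rnf145 by -0.067 in the exon 2-3 line. In sterol synthesis (3 tested), Lbr, which encodes the lamin B receptor and a sterol reductase, had 44.0, 45.2, 38.8 and 42.9 TPM in controls and 37.9, 36.0, 33.8 and 39.6 TPM in the cKO (-0.21, adjusted p = 0.105, limma). Its ranges overlapped, and it passed under 3 of 10 alternative settings and without 1 of 8 libraries. Lss had 7.14 to 9.12 TPM in controls and 6.31 to 6.91 TPM in the cKO (-0.21, adjusted p = 0.222, limma). The groups of Lss did not overlap, which held for 14.5% of all genes. The same was true of Acbd4, Kdsr and Stard3, which were not called either. Stard3, of sterol storage and transport, differed by -0.17 (adjusted p = 0.155, limma). Among acyl-CoA synthetases and binding proteins (6 tested), the acyl-CoA binding protein gene Dbi, at a mean of 290.9 TPM, differed by -0.058. Others of this group differed by more without passing, Acsf2 by -0.39 (adjusted p = 0.111, limma) and Acbd4 by 0.33 (adjusted p = 0.0756, limma). Acsf2 was also lower in the exon 2 cKO, by -0.21 (adjusted p = 0.9993, limma). Its groups did not overlap there, which held for 1.83% of all genes in that line.

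In glycerolipid and phospholipid synthesis (4 tested), the acyltransferase gene Lpgat1 differed by 0.035 and the choline phosphotransferase gene Chpt1 by 0.031. In the sphingolipid group of the list (3 tested), the desaturase gene Degs1 differed by 0.14 and the lyase gene Sgpl1 by 0.13. In the group listed as fatty acid oxidation (3 tested), the acyl-CoA dehydrogenase genes Acadl and Acadvl differed by -0.064 and 0.071. None of these 6 genes passed. Pecr at 0.31 (adjusted p = 0.119, limma) and Kdsr at 0.21 (adjusted p = 0.189, limma) differed by more than any of these 6 and did not pass either. Pecr and Kdsr were named, with Lss, Acsf2, Acbd4 and Stard3, after their values were seen.

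**Figure D5:**
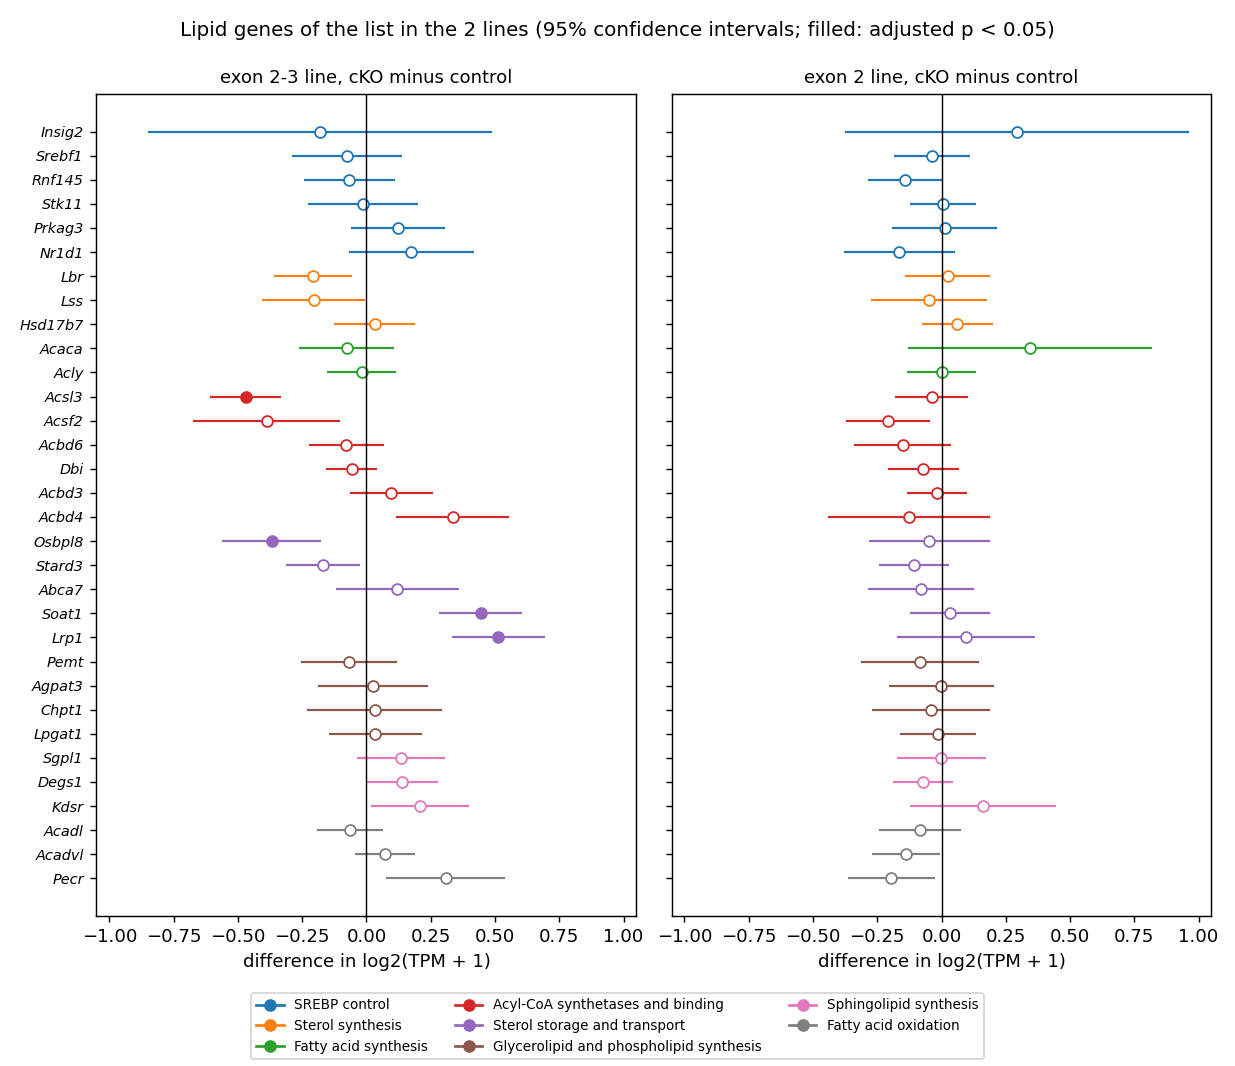
Difference in log2(TPM + 1) between cKO and control (horizontal axes) for the 32 lipid genes tested, in the exon 2-3 line (left) and the exon 2 line (right); colours mark the groups of the list, lines are limma's 95% confidence intervals, and filled points passed an adjusted p of 0.05. There are 4 filled points on the left, Acsl3, Osbpl8, Soat1 and Lrp1, and 0 on the right.

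The genes whose values followed each member most closely across the 16 libraries, after the mean of each line was subtracted, are given as a description. These correlations share libraries and scaling. Acsl3 was followed most closely by Spdl1 (Pearson's r = 0.897, n = 16) and Nuf2 (r = 0.885), which both encode proteins of the kinetochore. The lower level of Acsl3 in the exon 2-3 cKO entered this choice, so the values of both genes there are given with no test. Spdl1 had 13.2 ± 0.55 TPM in the exon 2-3 cKO against 17.0 ± 1.04 TPM in its controls, and Nuf2 24.9 ± 1.22 against 33.2 ± 1.14 TPM (SD, n = 4 each).

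For Acly the closest were Hus1 (r = 0.933) and Cand1 (r = 0.895), and for Hsd17b7 Rab23 (r = 0.904) and Camsap2 (r = 0.875). For Srebf1 they were Stk11 (r = 0.833), a gene of the lipid list, and Stk11ip (r = 0.831). For Acaca they were Pfn1 (r = 0.845) and Gm9795 (r = 0.765). In the exon 2 controls, where Acaca had a low library at 5.72 TPM, both also spread widely. Pfn1 ran there from 471 to 1062 TPM and Gm9795 from 0.37 to 1.45 TPM. The part of this group in the 2 correlations was not tested. Insig2 had the lowest correlations of the 6, with Tnnt2 (r = 0.619), the gene of cardiac troponin T, and Tmem220 (r = 0.595).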

How the data were processed

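The 16 ventricle RNA-seq libraries were grouped by their titles. The authors deposited 1 table of TPM values. Per the submitters' processing notes, FastQC, Trim Galore 0.6.7, HISAT2 2.2.1, StringTie 2.2.1, featureCounts and DESeq2 were used with GRCm38; which of them made the TPM is not given in the sources used here. Per the labels' protocols, 30000000 to 70000000 paired-end reads were obtained per sample. TPM keeps no depth, so no counting error is given. The labels name both stranded mRNA libraries and depletion of ribosomal RNA, and the extraction text names cortical neurons. Use of strand in counting is not given. Only part of the table was held (chromosomes 1 and 10 and most of 11, 5921 rows and 15.2% to 17.1% of a library's TPM). Atf4 was not analysed here. Row coordinates equalled RefSeq GRCm38.p6 for 5919 rows. No replicates of a group had equal values in more than 0.0410% of the rows above 0.

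The analysis used log2(TPM + 1), a scale that understates changes of low genes, and limma 3.58.1 (R 4.3.3, intensity trend, two-sided, Benjamini-Hochberg, threshold 0.05) on the 2620 genes with a mean of at least 1 TPM. Each line was fitted on its 8 libraries, and the interaction and the control contrast on all 16. The procedure was tested on simulated data drawn independently for each gene and library. That test does not cover shifts shared by many genes of a library. The members and lists were chosen with earlier results of these data known. Named genes are the members, the list genes called in a knockout comparison and otherwise the 2 of each group with the highest mean TPM, and the 2 genes most correlated with each member. Marker lists were ventricle cardiomyocyte, erythroid, endothelial, macrophage and leukocyte, epicardial and fibroblast, and neuronal genes. Figures were drawn with matplotlib 3.10.9 in Python 3.11.15. Alternatives were a pseudocount of 0.1, no filter, a minimum mean of 5 TPM, quantile normalisation, median centring, rescaling without hemoglobin genes, no trend, the replicate number as a block, one fit over all libraries, and leaving out each library. Leaving out the 2 exon 2-3 cKO libraries with the most hemoglobin was added after seeing the data.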

Additional observations from a re-analysis of the deposited data

Results flagged for a closer look

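Acaca in the exon 2 controls had 1 library, replicate 4, far below the others (5.72 against 12.0 to 13.7 TPM), with a gap to the nearest value of 0.843 of the group's range on the log2 scale. Hsd17b7 in the same group had 1 low library, replicate 2 (19.5 against 22.1 to 22.2 TPM), with a gap of 0.968 of the range. Both exceed the 95% critical value of Dixon's test for 4 samples. Of 24 groups tested, 2 did so, and chance gives about 1 in 20. The knockout effect differed between the lines by the interaction term of limma for Acsl3 (-0.43) and for Soat1 (0.41), with adjusted p values of 0.0128 and 0.0395.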

How the results depend on the processing

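Of the 6 genes, Acsl3 passed in the exon 2-3 line under every alternative run, with adjusted p from 0.000126 to 0.0261 (limma), and in the difference between the lines under all but the added one, which left 0 of the 6 genes called (-0.39, adjusted p = 0.0557). Genes called in the exon 2-3 line numbered 176 in the fit reported, 91 without a filter, 311 with quantile normalisation, 343 with median centring, 269 rescaled without hemoglobin genes, 54 without cKO replicates 2 and 4, and 70 to 190 with 1 library left out. In the exon 2 line there were 2, 4 in one fit over all libraries and 2 to 4 with 1 library left out. In the difference between the lines there were 62, 133 with quantile normalisation, 127 with median centring, 32 without cKO replicates 2 and 4, and 36 to 84 with 1 library left out. The share of calls that were higher was 61.9% in the exon 2-3 line, 41.4% with median centring and 50.5% with quantile normalisation. For the difference between the lines it was 67.7%, 52.0% and 53.4%, and for the controls 27.5%, 57.7% and 39.9%. The cause of these changes was not tested.

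Differences of genes that did not pass changed sign as follows. In the exon 2-3 line, Hsd17b7 was -0.020 with quantile normalisation and -0.017 with median centring, and Insig2 0.31 without cKO replicates 2 and 4. With 1 library left out there, Acly ranged from -0.067 to 0.0093, Hsd17b7 from -0.020 to 0.058 and Insig2 from -0.42 to 0.022. Acly in the exon 2 line ranged from -0.030 to 0.043. In the difference between the lines Srebf1 ranged from -0.093 to 0.012, Acly from -0.068 to 0.011 and Hsd17b7 from -0.082 to 0.014, and Insig2 was 0.012 without cKO replicates 2 and 4. Between the controls Acsl3 was 0.0017 with quantile normalisation and 0.099 with median centring, and Acly 0.049 with median centring. Srebf1 ranged from -0.28 to -0.18 and Acly, called in 2 of the fits, from -0.16 to -0.083 with 1 library left out, and Srebf1 was not called without a filter (adjusted p = 0.0545).

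With the replicate block, 149 genes were called in the exon 2-3 line, 2 with exon 2 alone floxed and 68 for the difference between the lines, with the same calls among the 6 genes. Of the list, Pecr was gained in the exon 2-3 line (adjusted p = 0.0484) and for the difference (adjusted p = 0.0212). With exons 2 and 3 floxed, a cKO and the control of its number correlated at -0.029, 0.053, -0.0063 and 0.21. With exon 2 alone floxed, these correlations were 0.098, 0.17, 0.20 and 0.064. Own number was the best match for 4 of 8 pairs. Correlations this weak, from 8 pairs, cannot decide whether the numbers pair libraries. The fit reported used no block. The block was not fitted to the controls, which come from different lines.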
